A study of Mus musculus with 10 samples.

Results

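Plasmalogen metabolism was described through 7 genes, Gnpat, Agps, Far1, Far2, Tmem86a, Tmem86b and Lpcat3, found by symbol among the 46983 genes of the count table, and all 7 had enough reads to be tested. They were chosen by their role in making, breaking and remodelling ether lipids, and the choice was made with the difference between the diets in these same mice known, so each gene's difference between the diets is given here as a description, without a test. RNA came from CD31+ cells taken with antibody-coated beads from the hearts of 10 male C57BL/6J mice, which were 8 weeks old when the diets began. For 14 days, 5 mice ate a control diet with 11.6% of its energy from fat and 5 a ketogenic diet with 89.5% from fat and very little carbohydrate. Each mouse gave 1 library. CD31 beads take whatever carries CD31, so the preparation is a model of cardiac endothelial cells (ECs) only as far as other cells were left behind.

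Plasmalogens are phospholipids whose first chain is held by a vinyl ether bond rather than an ester. Their synthesis begins inside peroxisomes, where GNPAT loads dihydroxyacetone phosphate with an acyl chain and AGPS swaps that chain for a fatty alcohol made by FAR1 or FAR2. It ends in the endoplasmic reticulum, where the headgroup is added and the vinyl double bond is formed. Lysoplasmalogens, the forms that have lost the second chain, are either given a new one or are broken at the vinyl ether bond by the lysoplasmalogenases TMEM86A and TMEM86B. LPCAT3 puts polyunsaturated chains such as arachidonate back onto lysophospholipids. Lpcat3 is a known target of the liver X receptors (LXRs), nuclear receptors that sense oxysterols.

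The promoters of Tmem86a and Lpcat3 are shown because the counts of these were the only ones among the 7 genes that did not overlap between the diets. Each window runs from 250 bases before to 50 bases after the annotated start in RefSeq on GRCm38.p6, on the gene's own strand, and all 7 genes had one. Tmem86a lies at chr7:47050390-47050689 on the plus strand and Lpcat3 at chr6:124662854-124663153 on the plus strand. Capitals mark matches, on either strand, to the GC box GGGCGG, the CCAAT box CCAAT and the cAMP response half-site TGACG.
Tmem86a: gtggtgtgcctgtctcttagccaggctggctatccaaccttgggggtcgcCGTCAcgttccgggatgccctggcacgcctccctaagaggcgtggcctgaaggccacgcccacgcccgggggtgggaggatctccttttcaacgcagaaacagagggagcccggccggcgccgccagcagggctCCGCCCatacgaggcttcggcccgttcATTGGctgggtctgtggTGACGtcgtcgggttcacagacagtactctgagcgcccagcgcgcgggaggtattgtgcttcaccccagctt
Lpcat3: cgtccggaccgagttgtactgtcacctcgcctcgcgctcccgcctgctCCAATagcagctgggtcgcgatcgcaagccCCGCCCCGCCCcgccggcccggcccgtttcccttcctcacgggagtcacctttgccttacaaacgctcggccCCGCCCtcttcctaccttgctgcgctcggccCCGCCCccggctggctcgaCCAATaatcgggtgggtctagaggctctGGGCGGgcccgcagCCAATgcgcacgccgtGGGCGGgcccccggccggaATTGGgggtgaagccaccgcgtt
The Tmem86a window held 1 GC box, 1 CCAAT box and 2 cAMP response half-sites, and the Lpcat3 window held 6 GC boxes and 4 CCAAT boxes. Of 32851 mouse promoter windows of the same length, 35.7% held a GC box, 37.4% a CCAAT box and 20.8% a cAMP response half-site. Neither window held the E-box CACGTG, found in 7.15% of all windows, the sterol response element TCACNCCAC, found in 1.24%, or the direct repeats DR1 and DR4 bound by nuclear receptors, found in 0.222% and 0.0822%. The GC content was 66% for Tmem86a and 71% for Lpcat3, against a median of 52.7% over all windows. A match is a description of these letters and not a bound site.

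The total of counted reads ran from 10885154 to 12206734 in the control mice and from 11108020 to 12710861 in the ketogenic mice. Of 8 endothelial markers none passed the test between the diets in edgeR (adjusted p under 0.05) or DESeq2, with 1 at an unadjusted p under 0.05 in edgeR (Kdr, the largest change, log2 fold change 0.13; Pecam1 -0.09), and their summed level was 4008 to 4256 CPM (counts scaled to library size) on the control diet and 3894 to 4383 on the ketogenic diet. The count of Cdh5 (VE-cadherin) was at no less than 92.3% of 2 reads per base of its length in every mouse. Counts of some genes level off near that number. Raw counts over the 10 mice ran only from 7356 to 7571 for Cdh5 and from 6770 to 7020 for Pecam1, a narrower spread than that of the totals. Not all markers were held in this way, with Kdr at 7281 to 9501. Genes whose counts are held can hardly differ between the diets, so equal EC content cannot be read from these markers. Markers of other cells were present too. Cardiomyocyte markers summed to 566 to 709 CPM on the control diet and 660 to 949 CPM on the ketogenic diet, with 9 of 10 higher in the ketogenic mice. None of them passed edgeR, 7 had an unadjusted p under 0.05 and DESeq2 called 5. The log2 fold change was 1.03 for Ttn, the largest, 0.55 for Myh6 and 0.10 for Tnnt2. Fibroblast markers summed to 555 to 617 and 550 to 640 CPM (Col1a1 0.21, largest Pdgfra 0.31), and all 5 adipocyte markers had too few reads to test, with at most 9 reads in any mouse (Adipoq included). Control mouse 1 stood apart in the macrophage marker Adgre1, at 2374 normalized counts against 25.3 to 613 in the other control mice. Without that mouse, the log2 fold changes of Tmem86a and Lpcat3 were 0.49 and 0.24. The diet left its mark on Pdk4, an inhibitor of pyruvate oxidation, at a log2 fold change of 1.44 (SE 0.10, adjusted p = 0.000103 from edgeR). In such bulk libraries, fewer cells of a type and less RNA per cell cannot be told apart.

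Levels of different genes can be compared only per length, and RPKM, in which the authors divided each count by gene length and library size, was used for that. The lysoplasmalogenase gene Tmem86a had the highest level of the 7, at 45.1 ± 8.89 RPKM (SD, n = 10 mice), higher than 92.8% of all tested genes. It was followed by Gnpat (21.6 ± 1.76 RPKM), Lpcat3 (14.8 ± 1.41), Far1 (13.4 ± 0.783) and Agps (3.16 ± 0.269). Tmem86b (0.727 ± 0.115 RPKM) and Far2 (0.616 ± 0.182) were the lowest, above 13.1% and 11.1% of tested genes. The order down to Tmem86b was the same in 10 of 10 mice for each of 5 neighbouring pairs (two-sided exact permutation test of paired differences in log2 RPKM with 0.1 added, adjusted p = 0.00234 over 6 pairs, with 0.00195 the smallest raw p that 10 mice can give). The narrowest of these steps was from Lpcat3 to Far1, with a mean log2 difference of 0.13 and a lowest of 0.0044 in 1 mouse. The test measures spread between mice only, and an error in a gene's length would repeat in every mouse. The lengths behind RPKM were 7884 bases for Lpcat3 and 13106 for Far1, whose annotated transcripts held 3396 and 8140 different stretches of 50 bases. For Gnpat they were 5975 bases and 3628 stretches, and for Tmem86a 1791 and 1838. The order therefore holds for the lengths used. With other lengths wider steps could change too, such as those from Tmem86a to Gnpat and from Gnpat to Lpcat3. Tmem86b was above Far2 in 6 of 10 mice only, and these neighbours could not be ordered beyond their spread (mean log2 difference 0.24 ± 0.48 SD, exact permutation p = 0.146, adjusted p = 0.146). Their means were 0.733 and 0.744 RPKM on the control diet, and 0.722 and 0.489 on the ketogenic diet. The pooled order of this pair thus includes the difference of Far2 between the diets. Their lengths were 3983 and 7611 bases, against 1916 and 7263 such stretches, so this order too holds only for the lengths used.

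**Figure D1:**
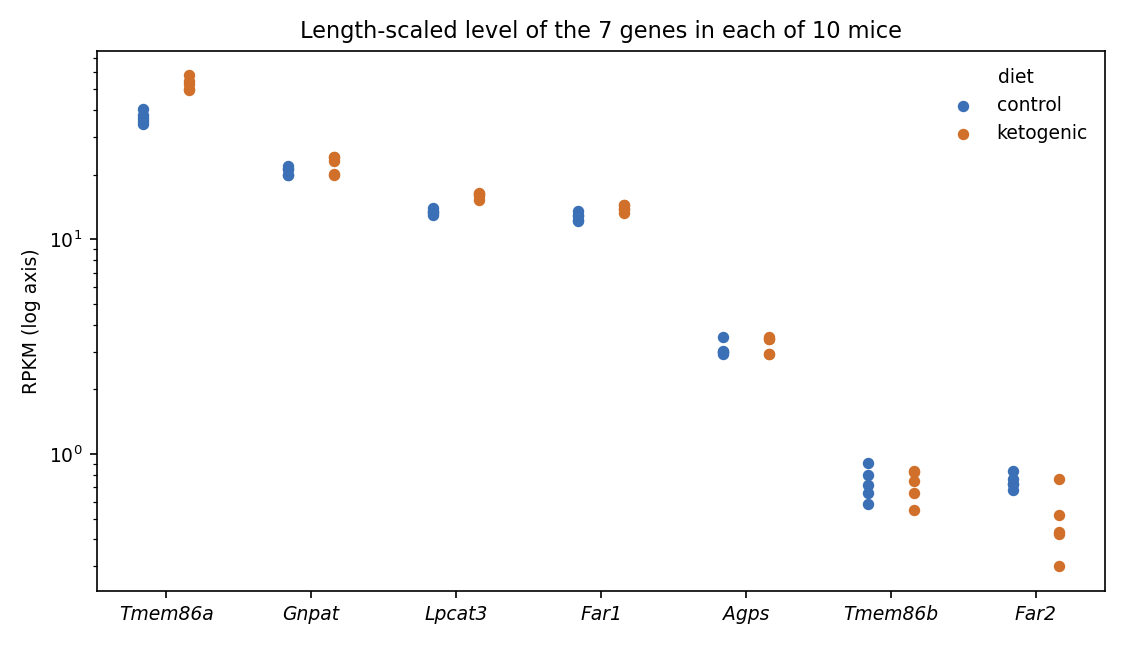
Level of each of the 7 genes in RPKM on a log axis, with 1 point per mouse and the genes in order of mean level (5 control mice in blue, 5 ketogenic mice in orange). With the gene lengths behind RPKM, Tmem86a is the highest in every mouse, while Tmem86b and Far2 lie below 1 RPKM and overlap each other. Other lengths could change this order.

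The relatives Tmem86a and Tmem86b, and likewise Far1 and Far2, differed widely in level. Tmem86a was 38.1 to 62.9 times the level of Tmem86b per length in the control mice and 60.5 to 95.8 times in the ketogenic mice, the ranges overlapping narrowly. Such ratios rest on the lengths behind RPKM, here 1791 bases for Tmem86a and 3983 for Tmem86b. Their annotated transcripts held 1838 and 1916 different stretches of 50 bases, and with lengths that near to each other the ratios would be lower. Far1 was 15.6 to 18.7 times the level of Far2 in the control mice (median 17.1) and 17.3 to 46.2 times in the ketogenic mice (median 33.3). Gnpat, which acts just before Agps, was 5.71 to 8.36 times its level over all mice, with medians of 7.01 and 6.75 on the control and ketogenic diet. No stretch of 50 bases, the read length, was shared between the transcripts of Tmem86a and Tmem86b or between those of Far1 and Far2, so reads of these relatives could be told apart.

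Gnpat and Agps act first in the peroxisome, and the log2 fold change of each of these was at most 0.09. Gnpat (ENSMUSG00000031985.9, chr8:124863033-124890057 in GENCODE M21 on GRCm38) had normalized counts, that is, reads scaled for library size and composition, of 1385 to 1536 on the control diet and 1386 to 1692 on the ketogenic diet. The ketogenic mice fell into 3 above every control mouse and 2 near the lowest control mouse, and the log2 fold change was 0.09 (SE 0.0637, 95% interval -0.05 to 0.23). Agps (ENSMUSG00000042410.15, chr2:75832177-75931350) had 381 to 462 normalized counts on the control diet and 377 to 455 on the ketogenic diet, which overlapped, with a log2 fold change of 0.06 (SE 0.0829, 95% interval -0.12 to 0.24). With each mouse's cardiomyocyte marker score in the fit, the log2 fold change of Agps was -0.08, so it has no stable sign.

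Of the fatty acyl-CoA reductases, Far1 had the higher and Far2 the lower mean count on the ketogenic diet. Far1 (ENSMUSG00000030759.16, chr7:113513834-113571511), which supplies most of the fatty alcohol for ether lipids, had normalized counts of 2007, 1861, 1884, 1996 and 2077 in control mice 1 to 5 and 2120.4, 2029, 2197, 2103 and 2184 in ketogenic mice 1 to 5. All but ketogenic mouse 2 lay above every control mouse. The log2 fold change was 0.11 (SE 0.0396, 95% interval 0.03 to 0.20), and it stayed between 0.09 and 0.14 in all 24 alternative fits.

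Far2 (ENSMUSG00000030303.15, chr6:148047259-148182758) was a low gene, with 27 to 69 reads per mouse. Its normalized counts were 74.5, 60.1, 64.2, 68.4 and 64.4 in control mice 1 to 5, and 26.6, 68.0, 38.3, 45.7 and 37.4 in ketogenic mice 1 to 5. All but ketogenic mouse 2 lay below every control mouse, and that mouse was inside the control range. The mean was 66.3 ± 5.46 (SD, n = 5) on the control diet and 43.2 ± 15.4 (SD, n = 5) on the ketogenic diet, a log2 fold change of -0.62 (SE 0.215, 95% interval -1.09 to -0.15). It was -0.84 without ketogenic mouse 2 and -0.24 on the scale of log2 RPKM with 1 added, where a low gene is damped. Far2 shares 10.8% of its 50-base words with other transcripts, mostly those of Ergic2 on the opposite strand, which the library kit does not distinguish, and Ergic2 itself had a log2 fold change of -0.03 (edgeR, adjusted p = 0.71). All 4 platelet markers were also lower on the ketogenic diet, none past edgeR although 4 had an unadjusted p under 0.05 and DESeq2 called 2, at summed levels of 402 to 644 CPM on the control diet and 188 to 480 CPM on the ketogenic diet (largest log2 fold change Itga2b, -0.92). Their score was lowest in ketogenic mouse 2, the ketogenic mouse with the most Far2, and their part in the Far2 difference was not tested.

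The lysoplasmalogenase Tmem86a showed the largest difference toward higher counts of the 7 genes. It lies at chr7:47050601-47054777 on the plus strand (ENSMUSG00000010307.5), overlaps no other annotated gene and shares no 50-base word with any other gene's transcripts. Normalized counts were 749, 793, 849, 774 and 724 in control mice 1 to 5, and 1047, 1209, 1099.6, 1138 and 1027 in ketogenic mice 1 to 5. Every ketogenic mouse lay above every control mouse, with 178 normalized counts between the nearest mice of the diets. The means were 778 ± 47.5 (SD, n = 5) and 1104 ± 73.0 (SD, n = 5), a log2 fold change of 0.51 (SE 0.0594, 95% interval 0.38 to 0.63), or 1.42-fold (1.30 to 1.55). Per length, this was 37.1 ± 2.33 RPKM on the control diet and 53.1 ± 3.52 RPKM on the ketogenic diet. Leaving out each mouse in turn gave log2 fold changes of 0.47 to 0.54.

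Tmem86b (ENSMUSG00000045282.7, chr7:4628040-4631422), a relative with the same activity first known from liver, had 26 to 42 reads per mouse. Its normalized counts ran from 27.4 to 42.2 on the control diet and from 25.5 to 38.5 on the ketogenic diet, overlapping over most of their range. The log2 fold change of -0.03 (SE 0.186, 95% interval -0.44 to 0.37) changed sign in 4 of 24 alternative fits. A difference within those bounds was not detectable at this depth.

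Lpcat3 (ENSMUSG00000004270.13, chr6:124663027-124704418), the acyltransferase, had the other difference without overlap. Its normalized counts were 1236, 1227, 1285, 1214 and 1253 in control mice 1 to 5, and 1401, 1459.5, 1487, 1502.5 and 1486 in ketogenic mice 1 to 5. The nearest mice of the diets were 117 normalized counts apart, and the spread within a diet was small. The means were 1243 ± 27.4 (SD, n = 5) and 1467 ± 40.1 (SD, n = 5), a log2 fold change of 0.24 (SE 0.0357, 95% interval 0.16 to 0.32), or 1.18-fold. Lpcat3 shares 8.39% of its 50-base words with Emg1 on the opposite strand, whose own log2 fold change was -0.09 (edgeR, adjusted p = 0.227).

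**Figure D2:**
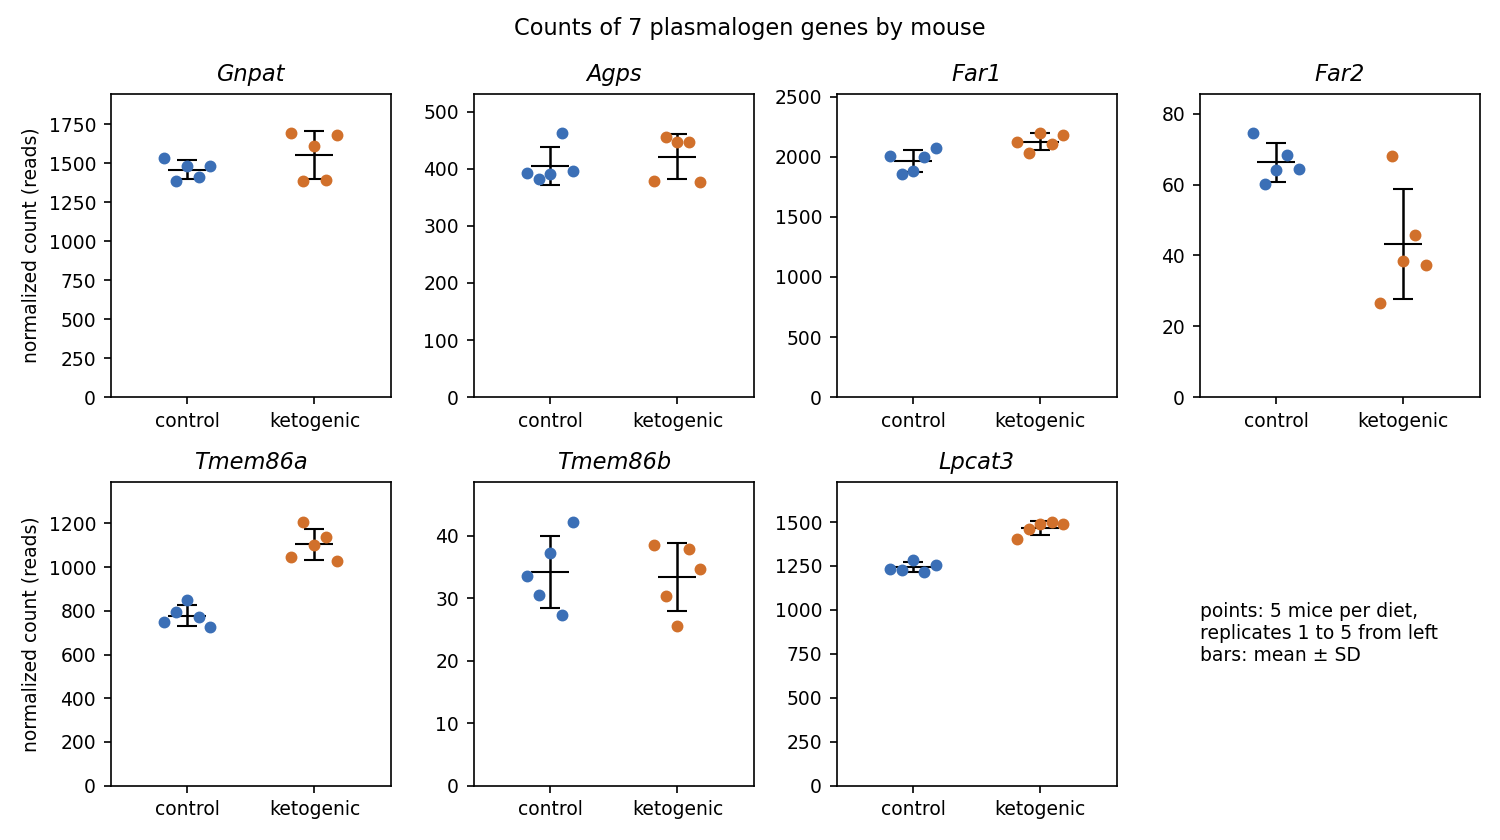
Normalized counts of the 7 genes, with 1 panel per gene, 1 point per mouse (replicates 1 to 5 from left, 5 mice per diet), axes from 0, and bars for the mean ± SD. Only Tmem86a and Lpcat3 have every ketogenic mouse above every control mouse, and ketogenic mouse 2 is the one Far2 value inside the control range.

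Counted over the set, 5 of 7 genes had higher and 2 lower mean counts in the ketogenic mice. Their median log2 fold change was 0.09, against -0.0057 over all 15949 tested genes. Both Tmem86a and Lpcat3 were past edgeR's threshold of adjusted p under 0.05, beside 1.34% of all tested genes in either direction and 0.809% toward higher counts. Both also lacked overlap toward higher counts, beside 2.4% of all tested genes. Because the choice of genes used this comparison, nothing is read from these counts.

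The differences of Tmem86a and Lpcat3 were next set beside the markers that moved with the diet. The cardiomyocyte score, each mouse's mean z-score over the 10 markers, was -0.53 ± 0.60 (SD, n = 5) on the control diet and 0.53 ± 0.75 on the ketogenic diet, with 3 ketogenic mice above every control mouse. In a fit with this score as a covariate, the log2 fold change of Tmem86a was 0.44 (SE 0.0745) and that of Lpcat3 was 0.20 (SE 0.0450). The fibroblast score separated the diets without overlap (-0.32 to -0.11 against -0.08 to 0.59), and with it as a covariate the values were 0.49 (SE 0.0889) and 0.21 (SE 0.0532). That fit was chosen after seeing the data. Within the diets, over 10 mice, Pearson r with the cardiomyocyte score was 0.48 for Tmem86a and 0.71 for Lpcat3, given as a description without a test. The part of these markers in the differences was not tested.

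**Figure D3:**
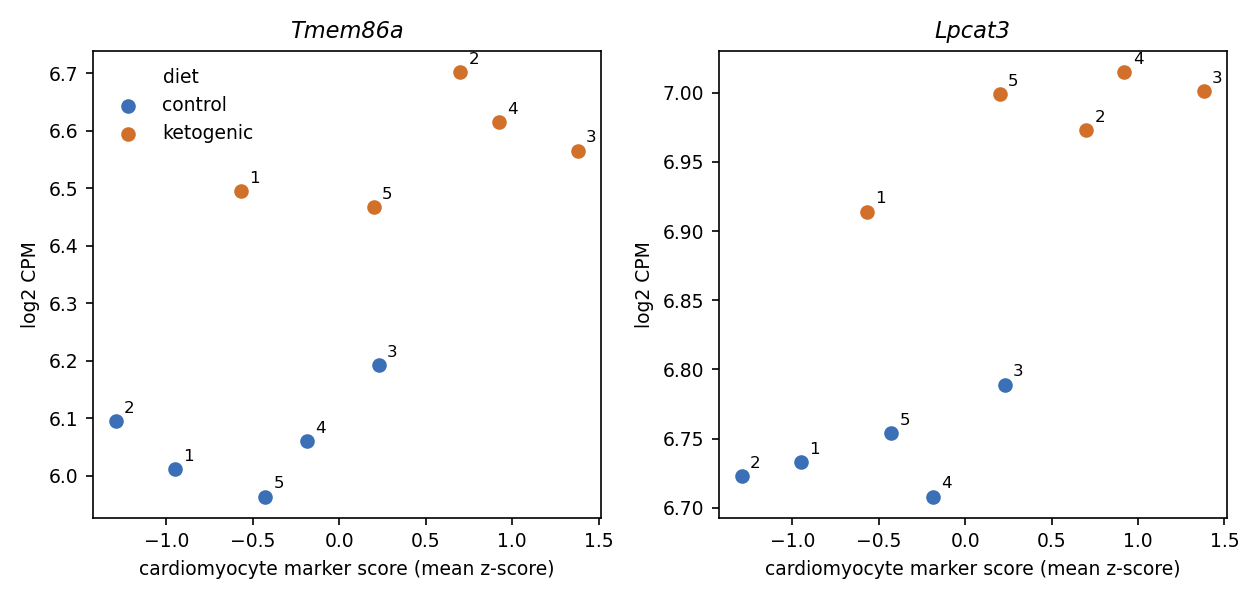
Level in log2 CPM of Tmem86a (left) and Lpcat3 (right) against the cardiomyocyte marker score of the same mouse, with 1 numbered point per mouse (control in blue, ketogenic in orange). The ketogenic mice lie further right on the score axis on average, with overlap of the diets, and Lpcat3 follows the score within the diets more closely (r = 0.71) than Tmem86a (r = 0.48).

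Counts themselves set a further limit. In some genes, counts level off near 2 reads per base of gene length, as they would if a single read were kept per start position and strand. Of all genes, 43 reached more than 90% of that number. It is not a strict limit, since 5 genes were above 100%, and whether reads were removed in this way was not tested. Other counts hardly varied far below it, at 33.2% to 34.4% for Pecam1 and 4.07% to 4.11% for the hemoglobin gene Hba-a1 (97 to 98 reads, named after its value was seen). A share of that number therefore does not show how near a gene is to a limit of its own. Tmem86a, a short gene with a high level, was at 19.4% to 23.2% of that number on the control diet and 29.6% to 32.7% on the ketogenic diet, while no other gene of the set was above 15.4%. These shares rest on the lengths behind RPKM. For Gnpat (5975 bases) and Lpcat3 (7884) these exceed the 3628 and 3396 different stretches of 50 bases in their transcripts, unlike for Tmem86a (1791 and 1838). Per such stretch, the shares of Gnpat and Lpcat3 would be higher. The correction that follows uses the same lengths. With counts corrected as if that number were a limit, an alternative added after seeing the data, the log2 fold change of Tmem86a was 0.59 (SE 0.0651) and that of Lpcat3 0.25 (SE 0.0387).

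**Figure D4:**
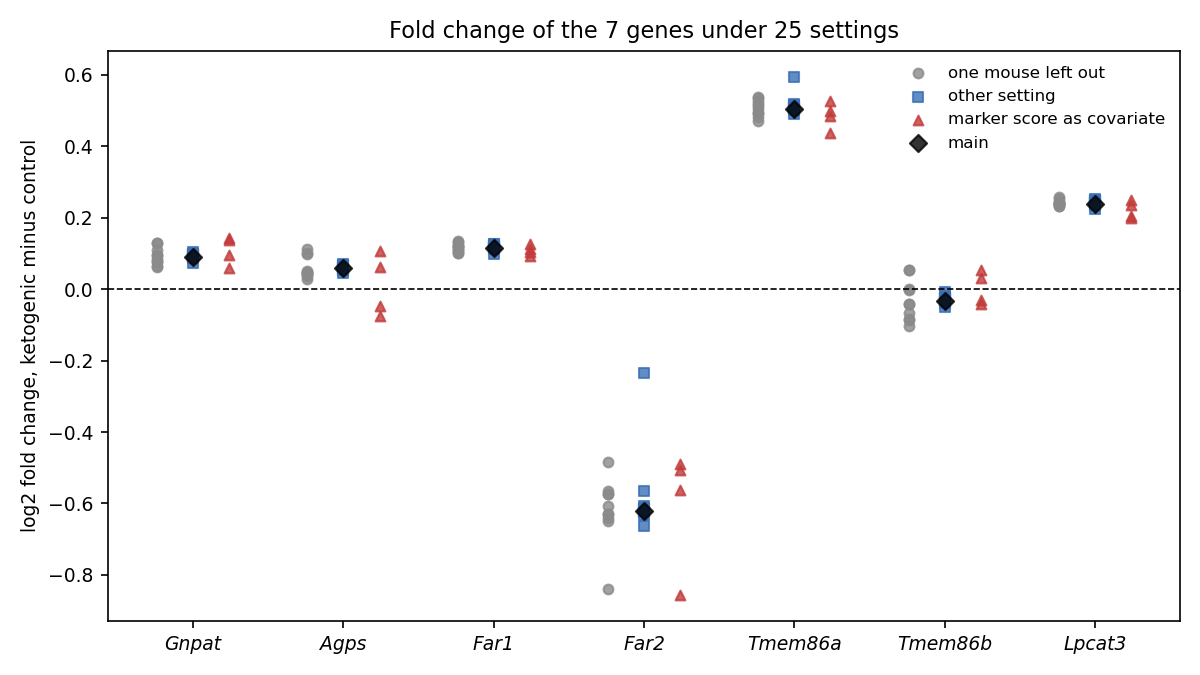
Log2 fold change (ketogenic minus control) of the 7 genes under the fit reported here (black) and 24 alternatives, namely 10 fits that each leave out 1 mouse (gray), 10 other settings (blue) and 4 fits with a marker score as covariate (red). Tmem86a and Lpcat3 stay above 0 throughout, Far2 stays below 0 but spreads most, and Agps and Tmem86b fall on both sides of 0.

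The other genes of ether lipid metabolism, also listed with earlier results known, were tested, since they were no part of the set. Of 15 such genes, all tested, 10 had higher and 5 lower counts in the ketogenic mice (median log2 fold change 0.16), and none had an adjusted p under 0.05 (edgeR). An unadjusted p under 0.05 was found for 4 of the 15, beside 17.8% of all tested genes, of which 48.6% had higher counts, and DESeq2 called 2. The nearest to the threshold were Pafah1b3, a catalytic subunit of the enzyme that degrades platelet-activating factor (PAF), an ether lipid, and Agpat3, an acyltransferase of the endoplasmic reticulum. Pafah1b3 had normalized counts of 142 ± 9.83 on the control diet and 215 ± 44.6 on the ketogenic diet (SD, n = 5 each), a log2 fold change of 0.60 (SE 0.137, edgeR adjusted p = 0.0563). Its lowest ketogenic mouse (161, mouse 2) was above its highest control mouse (151). Agpat3 had 701 ± 44.7 and 869 ± 84.4 normalized counts (SD, n = 5 each), a log2 fold change of 0.31 (SE 0.0731, edgeR adjusted p = 0.0609), again without overlap. These were the 2 genes DESeq2 called, with adjusted p of 0.00341 and 0.00406, and edgeR called them without ketogenic mouse 2 (adjusted p = 0.0173 and 0.0281).

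The steps between the peroxisome and the finished plasmalogen held no call. Pex7 and Pex5, which bring AGPS into the peroxisome, had log2 fold changes of 0.18 (SE 0.205) and 0.19 (SE 0.109). Dhrs7b, the reductase that follows AGPS, was at 0.16 (SE 0.0777) and Tmem189, the desaturase that makes the vinyl ether bond, at -0.13 (SE 0.126). The headgroup transferases Cept1 (0.04), Selenoi (-0.08) and Chpt1 (0.34, edgeR adjusted p = 0.197) were divided in sign. The phospholipases that free the second chain, Pla2g6 and Pla2g4a, were both at -0.18. Agmo, which cleaves alkyl ether bonds, was at 0.19 (SE 0.118). Of the remaining PAF hydrolases, Pafah2 was at 0.27 (edgeR adjusted p = 0.200) without overlap of the diets, Pafah1b2 at 0.15 and Pla2g7 at -0.02.

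**Figure D5:**
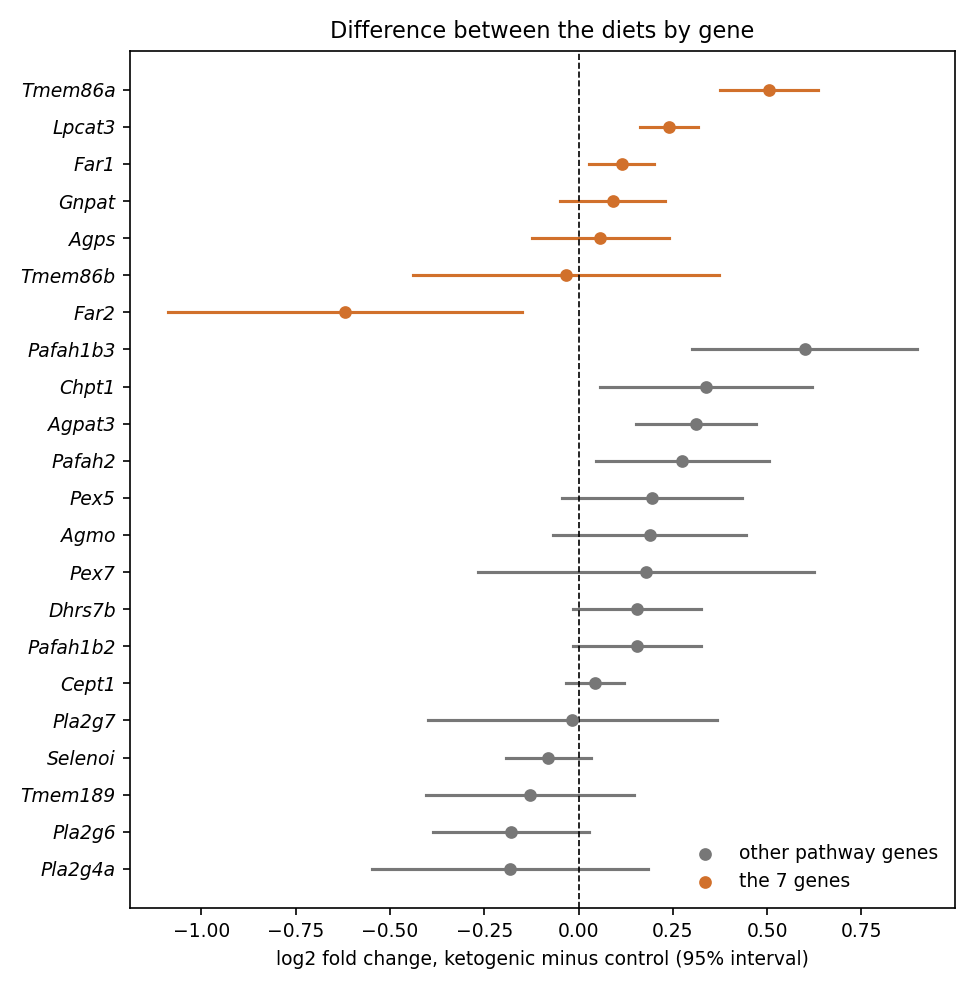
Log2 fold change (ketogenic minus control, n = 5 mice per diet) with its 95% interval for the 7 genes (orange, shown as a description) and 15 other genes of ether lipid metabolism (gray). Tmem86a has the highest and Far2 the lowest value of the 7, and of the other genes Pafah1b3, Chpt1, Agpat3 and Pafah2 have intervals above 0.

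Peroxisome assembly, phospholipid acylation and LXR targets were looked at in the same way. Of 16 peroxisome assembly genes, 14 had higher and 2 lower counts on the ketogenic diet (87.5% higher, beside 48.6% of all tested genes, median log2 fold change 0.10), and none passed edgeR's threshold, while 2 had an unadjusted p under 0.05 (12.5%, beside 17.8% of all tested genes) and DESeq2 called 1 (Pex3, adjusted p = 0.0342, named after its value was seen). The highest was Pex11a, a peroxisome division gene with 19 to 60 reads per mouse, at 0.61 (SE 0.210, edgeR adjusted p = 0.163). Of 12 other phospholipid acyltransferase genes, 6 were higher and 6 lower (median 0.02) and none passed edgeR's or DESeq2's threshold, with 1 at an unadjusted p under 0.05 in edgeR. That was Lclat1, a lysocardiolipin acyltransferase, at 0.24 (SE 0.0755, edgeR adjusted p = 0.138), and the lowest was Agpat2 at -0.35 (SE 0.198, edgeR adjusted p = 0.379), which passed without ketogenic mouse 2 (-0.61, adjusted p = 0.0237).

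Other LXR targets took no common direction. Of 16 listed LXR target genes 14 were tested, 6 higher and 8 lower (median log2 fold change -0.04), and 1 passed edgeR's test. That was Scd1, the stearoyl-CoA desaturase, which fell by 0.74 on the log2 scale (SE 0.0787, edgeR adjusted p = 0.0013) and passed in each alternative except the fit with the fibroblast score. The highest was Acsl3, a long-chain acyl-CoA synthetase, at 0.36. Nr1h3, the gene for LXR-alpha itself, passed only without ketogenic mouse 3 (-0.39, edgeR adjusted p = 0.0404), with DESeq2 or with a filter of 10 reads in every mouse (named after its value was seen).

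Finally, genes were ranked by how closely they followed Tmem86a from mouse to mouse within the diets (Pearson r of log2 CPM after each diet's mean was taken off, over 10 mice and 10882 genes with a mean of at least 100 normalized counts). The highest were Tra2a, a splicing regulator, at r = 0.92 (Spearman's rho 0.95), Sele, the endothelial adhesion molecule E-selectin, at 0.91 (0.93), Clca3a1 at 0.89 (0.87), Tceal8 at 0.88 (0.81) and the noncoding RNA Mir99ahg at 0.86 (0.92). These are descriptions without a test, from points that share library and depth. Of the genes compared, 13 (0.119%) reached r of 0.8, while 70 were at -0.8 or below. Their difference between the diets was not that of Tmem86a: Tra2a was at -0.32 (edgeR adjusted p = 0.0471), Sele at -0.14, Clca3a1 at -0.11, Tceal8 at 0.12 and Mir99ahg at -0.20. Within the set, r with Tmem86a was 0.57 for Far2, 0.46 for Agps, 0.33 for Lpcat3, -0.26 for Tmem86b, -0.69 for Gnpat and -0.80 for Far1. For Far1 the value was much the same in each diet (-0.86 over the 5 control mice and -0.77 over the 5 ketogenic mice), but for Gnpat it was -0.25 and -0.92, for Far2 -0.37 and 0.88, and for Agps -0.12 and 0.89, so these 3 rest mainly on the ketogenic mice.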

How the data were processed

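Tables were deposited by the authors, raw counts of reads per gene and mouse (46983 genes, not normalized) and RPKM, those counts scaled to gene length and library. The submitters' processing notes name bcl2fastq 2.17.1.14, STAR 2.3, HTSeq 0.6.0 and build mm10. The annotation release and any removal of duplicate reads are not given in the sources used here. Libraries were made with the SMART-Seq v4 kit, which keeps no strand, and sequenced as single reads of 50 bases.

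Symbols and positions came from GENCODE M21 (GRCm38), which held 46488 of the identifiers without regard to version, and promoters from RefSeq (GRCm38.p6). Counts of the diets were tested in edgeR 4.0.16 under R 4.3.3 (TMM, filterByExpr, quasi-likelihood F-test, Benjamini-Hochberg adjustment over 15949 genes). The study used DESeq2, which is an alternative here (1.42.0). Standard errors were derived from the F statistic and the log2 fold change, and log2 CPM used a prior count of 2. Levels were ordered on log2 RPKM with 0.1 added. Each mouse's marker score is the mean z-score of a list's log2 CPM. The same-numbered mice of the diets were not treated as pairs (correlations of their deviations from -0.25 to 0.07). The paper describes the control mice as littermates, but the litter of each mouse is not given in the sources used here. Such correlations cannot show whether mice were paired.

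The members and the lists were chosen with earlier results of these data known. Named are the 7 members, the 15 other ether lipid genes, the calls (at most 4), the highest and the lowest gene of each other list, 7 markers and the marker of each list with the largest change, the 5 genes closest to Tmem86a, and Pdk4. A gene that meets this rule is not reported here. Alternatives were other scalings and filters, DESeq2, limma 3.58.1 on log2 RPKM, the replicate number as a block, marker scores as covariates and each mouse left out. On simulated data (15687 genes), edgeR recovered 76 of 108 genes changed by 0.5 on the log2 scale and 90 of 92 changed by 1, with 8 false calls. The simulated counts had a spread set by level alone and no upper limit, and the lowest genes were left unchanged. Recovery in these mice can therefore differ.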

Additional observations from a re-analysis of the deposited data

Results flagged for a closer look

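Among 62 groups of 5 mice, 1 per gene or marker score and diet, 9 held a mouse whose gap to its nearest neighbour took up more of the group's range than the Dixon limit of 0.71, where chance gives about 1 in 20, or 3.1. Of the 7 members only Agps held one, in control mouse 4, at 462 normalized counts against 395 in the next mouse (gap share 0.828), and without that mouse its log2 fold change was 0.11 in place of 0.06. In the other ether lipid genes, ketogenic mouse 3 was highest for Dhrs7b (gap share 0.767), Cept1 (0.786) and Chpt1 (0.757), and control mouse 2 was lowest for Cept1 (0.757) and Pla2g7 (0.832). Control mouse 2 was also lowest in the endothelial score (gap share 0.739) and the erythroid score (0.840), and ketogenic mouse 4 was highest in the macrophage score (0.881). Control mouse 2 had the largest total of the control mice (12206734 reads), while raw counts of several of these markers hardly varied. The part of depth in its low scores was not tested. Without control mouse 2, the log2 fold changes of Tmem86a and Lpcat3 were 0.52 and 0.24.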

How the results depend on the processing

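Tmem86a, Lpcat3, Far1, Gnpat and Far2 kept their sign in all 24 alternatives. The order of the levels gave 5 called pairs on each scale tried for it and with each mouse left out, always with the same gene lengths. Leaving out each mouse gave 86 (without control mouse 2) to 492 (without ketogenic mouse 2) called genes in place of 213, and fewer by over 1.5 times also without control mouse 1, 3 or 4 (109, 98 and 134) or ketogenic mouse 1, 3, 4 or 5 (134, 108, 95 and 134). It gave 0 to 2 ether lipid genes and 0 to 1 acyltransferase genes, the highest counts without ketogenic mouse 2, and 1 to 2 LXR targets, the highest without ketogenic mouse 3. DESeq2 called 806 genes, of them 2 ether lipid genes, 1 peroxisome assembly gene and 2 LXR targets. The filter of 10 reads in every mouse gave 2 LXR targets. With the replicate number as a block, 113 genes and 1 member (Tmem86a) were called. Whether the numbers pair the mice is not given in the sources used here. With the cardiomyocyte score as a covariate, 42 genes and 1 member (Tmem86a) were called. The covariates chosen after seeing the data gave 141 genes (macrophage), 96 (endothelial) and 9 (fibroblast, with 0 members). The cause of these changes was not tested. The counts of members are descriptions. The scalings moved the median of all genes by less than 0.1 on the log2 scale. Low depth limits Far2, Tmem86b and Pex11a to large differences.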

Other observations

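The promoter windows of the other 5 members held these matches to the same motifs. Far1 held 4 GC boxes, 3 CCAAT boxes and 1 cAMP response half-site, Far2 2 GC boxes, Agps 2 GC boxes and 1 CCAAT box, and Tmem86b 1 CCAAT box. Gnpat held 1 GC box, 1 cAMP response half-site and the only E-box of the 7 windows, with its first base 224 bases before the start. Within the diets, over 10 mice, the members other than Tmem86a were closest in Far2 and Agps (Pearson r = 0.61) and most opposed in Far2 and Gnpat (r = -0.70), given as descriptions without a test. Of the 6 lymphocyte markers only the B cell receptor gene Cd79a passed edgeR's test between the diets, at a log2 fold change of -0.46 (adjusted p = 0.0221), while DESeq2 called 3, and Ms4a1 had the largest change of that list, at -0.53. Mural markers had log2 fold changes near 0 (largest Acta2, -0.06), as did erythroid markers (largest Alas2, 0.10). Raw counts over the 10 mice hardly varied for Acta2 (2707 to 2892) and Hba-a1 (97 to 98), and more for Alas2 (1973 to 2648). Equal content of these cells therefore cannot be read from values near 0. Of the macrophage markers, 7 of 8 were lower on the ketogenic diet, none past edgeR or DESeq2 and 4 at an unadjusted p under 0.05 in edgeR. The largest change among these was that of Adgre1 (-2.63), in which control mouse 1 stood apart, and Ptprc was at -0.47.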
